A study of Danio rerio with 11 samples.

Results

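The genes hspa5, dnajc3a, manf, pdia4 and herpud1 encode proteins that fold or dispose of other proteins in the endoplasmic reticulum (ER), and they were followed in livers of zebrafish larvae given a methylation inhibitor or carrying an ahcy mutation. They are 5 of the 7792 named genes on the arrays and are measured by 6 probe sets, manf by 2 and each of the others by 1. They were chosen by their measured levels on these arrays, which differed between azacytidine, mutant and control livers, so levels and differences are given as a description, with no test. The unfolded protein response is the signalling network that cells switch on when unfolded proteins collect in the ER. In vertebrates it starts from the sensors IRE1, PERK and ATF6, acts through the transcription factors XBP1, ATF4 and ATF6, and raises ER chaperones, disulfide isomerases and the machinery that returns misfolded proteins to the cytosol for degradation. Hepatocytes make most plasma proteins in the ER and carry a large amount of this machinery also without stress. The label chaperone genes holds loosely for herpud1, which encodes a membrane protein of ER-associated degradation and not a chaperone.

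All samples were livers dissected at 4 days after fertilisation, with 1 array each. The azacytidine group (4 arrays, samples 1, 2, 5 and 6) was ahcy +/+ and had 1 mM azacytidine injected into the yolk at 2 days. This nucleoside analogue is built into DNA and traps DNA methyltransferases. The mutant group (3 arrays, samples 3, 4 and 6) was ahcy -/- and was injected with vehicle; ahcy encodes the hydrolase that removes S-adenosylhomocysteine, the by-product of methylation reactions. The control group (4 arrays, samples 1, 2, 4 and 8) was ahcy +/+ with vehicle. The series asked which genes differ in expression once methylation is inhibited. The labels do not say whether a sample was a pool of larvae or whether samples came from separate clutches, and p-values therefore rest on the spread between these samples alone, part or all of which may be technical. Azacytidine was given to the whole larva and the mutation was present in every cell, so neither is limited to the liver.

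Levels are the deposited log2 values of GCRMA, a method that corrects background, puts arrays on a common scale and combines the probes of a probe set; a difference of 1 is a doubling. The array medians lay between 5.89 and 5.97 in azacytidine livers, between 6.13 and 6.17 in mutants and between 5.97 and 6.14 in controls, and precision is limited by how few arrays each group has. The ahcy probe set, whose place relative to the mutation is not known, stood at 12.06 to 12.61 in azacytidine livers, 11.47 to 12.11 in mutants and 12.30 to 12.47 in controls. The hepatocyte marker tfa (transferrin) was high on all arrays, at 13.32 to 13.61 with azacytidine, 12.61 to 13.04 in mutants and 13.33 to 13.46 in controls. Samples also held other tissues in differing amounts: control 2 had the highest mean of exocrine pancreas markers (9.78) and control 4 the highest of neural markers (8.59) and of eye and lens markers (7.05). Azacytidine 6 stood apart in its group. Its mean of intestine markers was 9.22, against 6.52 to 6.77 in the other azacytidine arrays, and that of exocrine pancreas markers was 7, against 5.41 to 5.68.

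The 5 genes had their highest mean levels in azacytidine livers and their lowest in ahcy mutants. All 4 azacytidine arrays lay above all controls for 4 of the 5 genes, manf being the exception, where 4.15% of the 7792 genes lay wholly above and 5.01% wholly below. All 3 mutant arrays lay below all controls for 4 of the 5, herpud1 being the exception, against 12.9% of all genes wholly below and 11.5% wholly above. Mutant arrays lay below all azacytidine arrays for 5 of the 5, against 16% of all genes wholly below and 22.2% wholly above. These contrasts chose the genes, and nothing is read from the shares.

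hspa5 encodes BiP (GRP78), the Hsp70 chaperone of the ER lumen, which in mammals also holds the stress sensors inactive. Its level was 12.50, 12.05, 12.02 and 12.28 in azacytidine arrays 1, 2, 5 and 6, and 9.86, 9.88 and 9.41 in mutant arrays 3, 4 and 6, against 11.03, 11.54, 12.01 and 11.08 in control arrays 1, 2, 4 and 8. The azacytidine arrays were above every control, though by a very small margin over control 4, and the mutants were well below every control. On group means, azacytidine minus control was 0.80 ± 0.22 (SE from the fit of all 11 arrays, as below), a 1.74-fold higher level, and mutant minus control was -1.70 ± 0.24, a 3.25-fold lower level. hspa5 had the smallest standard errors of the 5 genes, and its SD was 0.22 in azacytidine livers (n = 4), 0.27 in mutants (n = 3) and 0.46 in controls (n = 4).

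dnajc3a encodes the J-domain co-chaperone P58IPK, which delivers unfolded proteins to BiP and was named in mammals for inhibiting kinases that phosphorylate eIF2-alpha. It stood at 10.66, 10.14, 10.20 and 10.76 in azacytidine arrays 1, 2, 5 and 6, and at 6.24, 7.20 and 6.72 in mutant arrays 3, 4 and 6, against 9.36, 9.93, 10.10 and 8.73 in control arrays 1, 2, 4 and 8. No azacytidine array reached down to the controls and no mutant array reached up to them. The mutant difference of -2.81 ± 0.35, or 7.01-fold lower, was the largest of the 5 genes against control, while the azacytidine difference was 0.91 ± 0.33, or 1.88-fold higher. Its paralogue dnajc3b, chosen for mention after its values were seen, had differences of 0.81 ± 0.41 with azacytidine and -0.37 ± 0.44 in mutants; neither passed the fit's test (adjusted p = 0.381 and 0.66, limma with Benjamini-Hochberg adjustment).

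manf encodes a small ER-resident and secreted factor that binds BiP and was first studied for its support of neurons. Its brighter probe set read 11.21, 10.57, 10.93 and 11.74 in azacytidine arrays 1, 2, 5 and 6, and 7.76, 8.76 and 7.69 in mutant arrays 3, 4 and 6, against 9.93, 10.36, 10.59 and 9.93 in control arrays 1, 2, 4 and 8. Azacytidine 2 lay just under control 4, so these groups overlapped, and the mutants lay below every control. Azacytidine minus control was 0.91 ± 0.31 and mutant minus control was -2.13 ± 0.33, a 4.38-fold lower level.

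The dimmer manf probe set read 5.27, 4.60, 5.22 and 5.14 in azacytidine arrays 1, 2, 5 and 6, and 3.18, 4.02 and 3.61 in mutant arrays 3, 4 and 6, against 3.78, 4.19, 3.97 and 4.68 in control arrays 1, 2, 4 and 8. It lay under the 10th percentile of its own array, which was 4.51, 4.37 and 4.44 in mutants 3, 4 and 6, on all 3 mutant arrays and on control arrays 1, 2 and 4. Mutant and control levels are therefore at the floor of the arrays, and no difference is read from this probe set.

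pdia4 encodes ERp72, a protein disulfide isomerase that forms and rearranges disulfide bonds in the ER lumen. Its level was 11.25, 10.44, 10.50 and 11.63 in azacytidine arrays 1, 2, 5 and 6, and 6.68, 8.12 and 6.36 in mutant arrays 3, 4 and 6, against 8.56, 9.03, 10.09 and 8.36 in control arrays 1, 2, 4 and 8. The groups did not overlap, although mutant 4 came close to control 8 and control 4 close to azacytidine 2. pdia4 had the largest azacytidine difference of the 5 genes, 1.95 ± 0.46 or 3.85-fold higher, and a mutant difference of the same size downward, -1.96 ± 0.50 or 3.88-fold lower. Its SD was 0.58 in azacytidine livers (n = 4), where herpud1 had a larger one of 0.63, and 0.94 in mutants (n = 3) and 0.77 in controls (n = 4), the largest of the 5 genes in those groups.

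herpud1 encodes HERP, an ER membrane protein with a ubiquitin-like domain that in mammals works with the ubiquitin ligase HRD1 in ER-associated degradation. It stood at 11.20, 10.01, 9.84 and 10.70 in azacytidine arrays 1, 2, 5 and 6, and at 7.67, 7.82 and 8.36 in mutant arrays 3, 4 and 6, against 9.25, 9.21, 8.74 and 7.69 in control arrays 1, 2, 4 and 8. All azacytidine arrays were above all controls, but control 8 lay among the mutants, so mutants and controls overlapped. The azacytidine difference was 1.72 ± 0.39, or 3.28-fold higher, and the mutant difference was -0.77 ± 0.42, or 1.71-fold lower, the smallest of the 5 genes. Its paralogue herpud2, chosen for mention after its values were seen, had differences of 0.41 ± 0.29 and 0.48 ± 0.31, both positive and neither called (adjusted p = 0.558 and 0.366, limma with Benjamini-Hochberg adjustment).

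**Figure D1:**
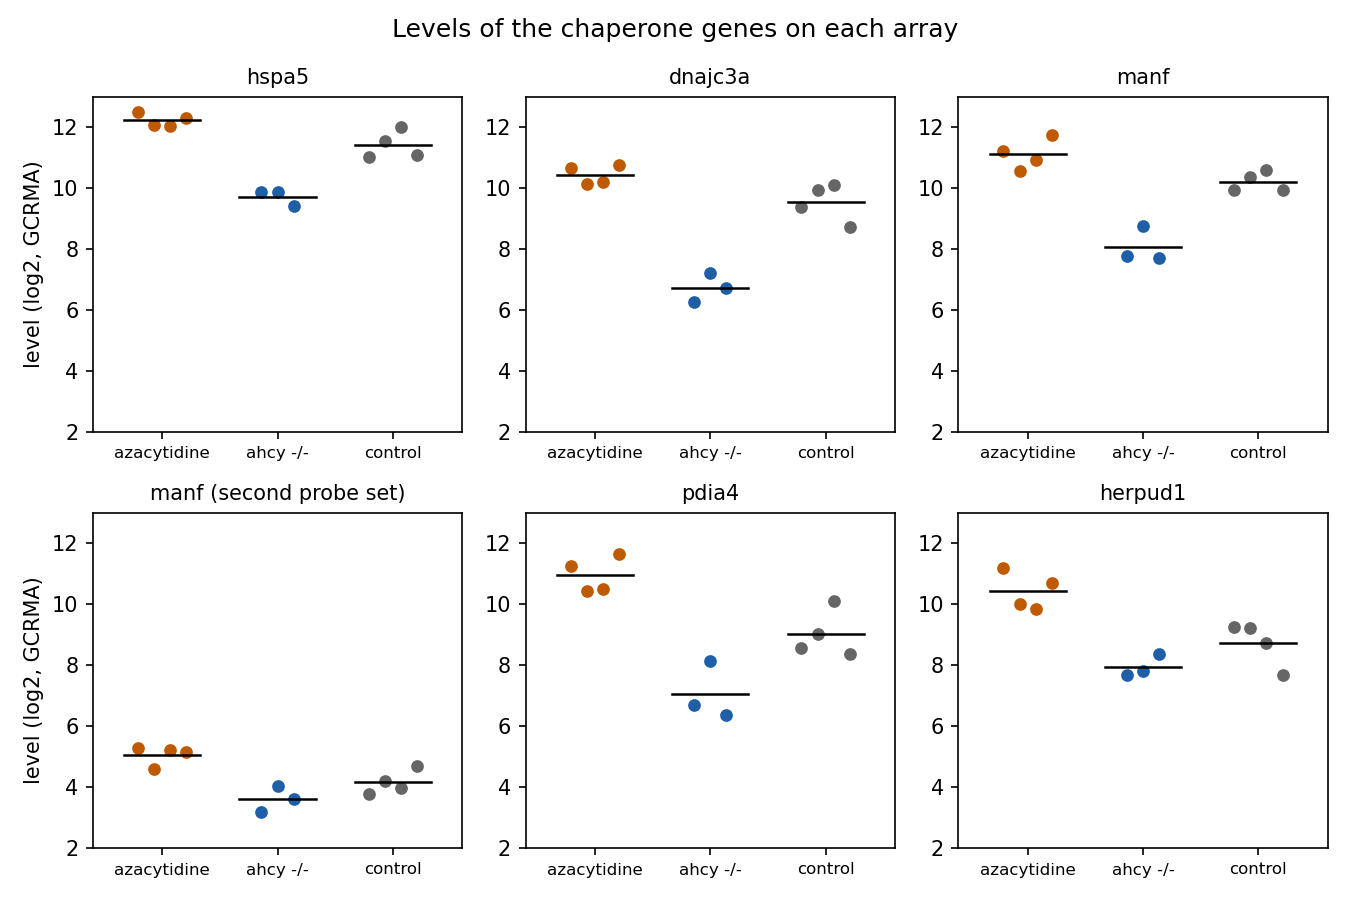
Level (log2, GCRMA) of each gene on each array, 1 panel per probe set; points are arrays, in order of sample number within azacytidine, ahcy -/- and control, and bars are group means. For the brightest probe set of each gene, the azacytidine mean is highest and the mutant mean lowest. Azacytidine and control overlap for both manf probe sets, and mutants and controls for herpud1 and the dimmer manf probe set. No difference is read from the dimmer manf probe set, which is at the floor in mutants and controls.

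Set side by side, the comparisons with control, which share their 4 control arrays, differed in balance between genes. herpud1 had 1.72 with azacytidine and -0.77 in mutants, pdia4 had 1.95 and -1.96, and hspa5, manf and dnajc3a had 0.80, 0.91 and 0.91 with azacytidine but -1.70, -2.13 and -2.81 in mutants. Directly between both inhibited groups, mutant minus azacytidine was -2.5 ± 0.24 for hspa5, -3.72 ± 0.35 for dnajc3a, -3.04 ± 0.33 for manf, -3.90 ± 0.50 for pdia4 and -2.49 ± 0.42 for herpud1. These correspond to levels between 5.61-fold and 14.9-fold lower in mutants than in azacytidine livers. Leaving out each array in turn kept the sign of all 15 differences. These contrasts chose the genes, so kept signs, here and in the alternatives below, are a description and no support. Without controls 2 and 4 together, a choice made after seeing the data, the azacytidine difference was 1.16 for hspa5 and 2.5 for pdia4, and the mutant difference was -1.34 for hspa5 and -1.41 for pdia4.

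**Figure D2:**
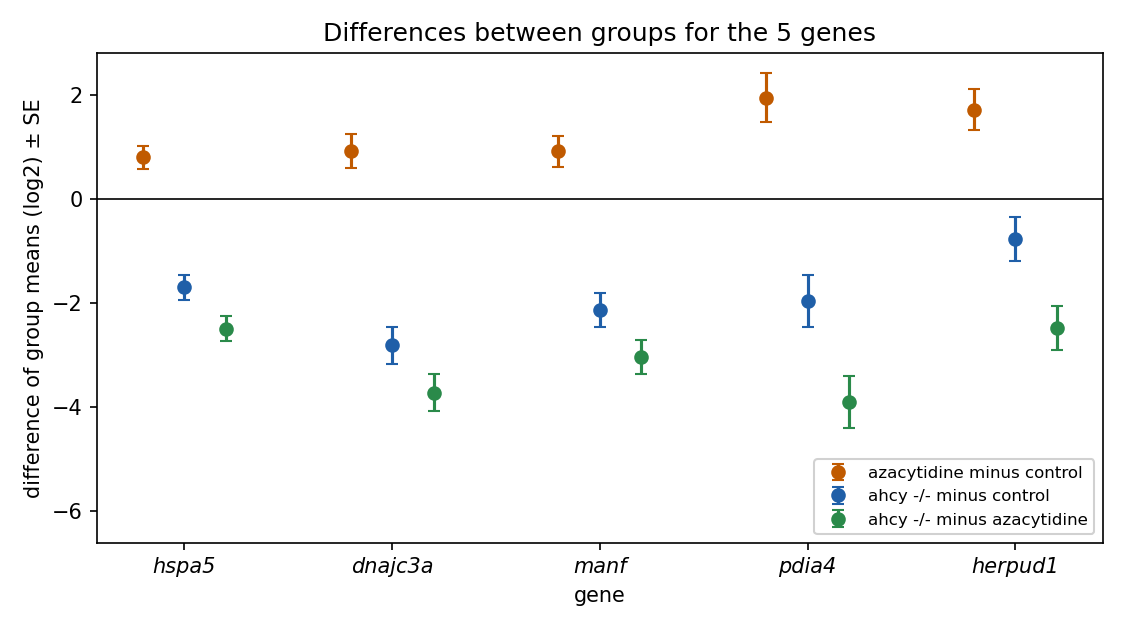
Differences of group means (log2) for the 5 genes in azacytidine minus control, ahcy -/- minus control and ahcy -/- minus azacytidine; points are estimates and bars ± 1 SE from the fit of all 11 arrays. All azacytidine differences are above 0, from 0.80 to 1.95, and all mutant differences are below 0, from -2.81 to -0.77 against control.

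Within groups the genes moved together on some arrays. Azacytidine arrays 1 and 6 were above the group mean for all 5 genes, by 0.07 to 0.76, and azacytidine arrays 2 and 5 were below it for all 5. Mutant 4 was the highest mutant for hspa5, dnajc3a, manf and pdia4, and mutant 6 the highest for herpud1. Control 8 was below the control mean for all 5 genes, with herpud1 lowest at -1.03, and control 4 was above it for all 5, with pdia4 highest at 1.08. After subtracting group means, Pearson correlations over the 11 arrays ran from 0.27 (hspa5 with herpud1) to 0.93 (manf with pdia4), with the other pairs of herpud1 at 0.28, 0.28 and 0.64. herpud1 was thus the gene whose within-group spread was least like the others. These correlations describe genes that share the same arrays and carry no p.

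**Figure D3:**
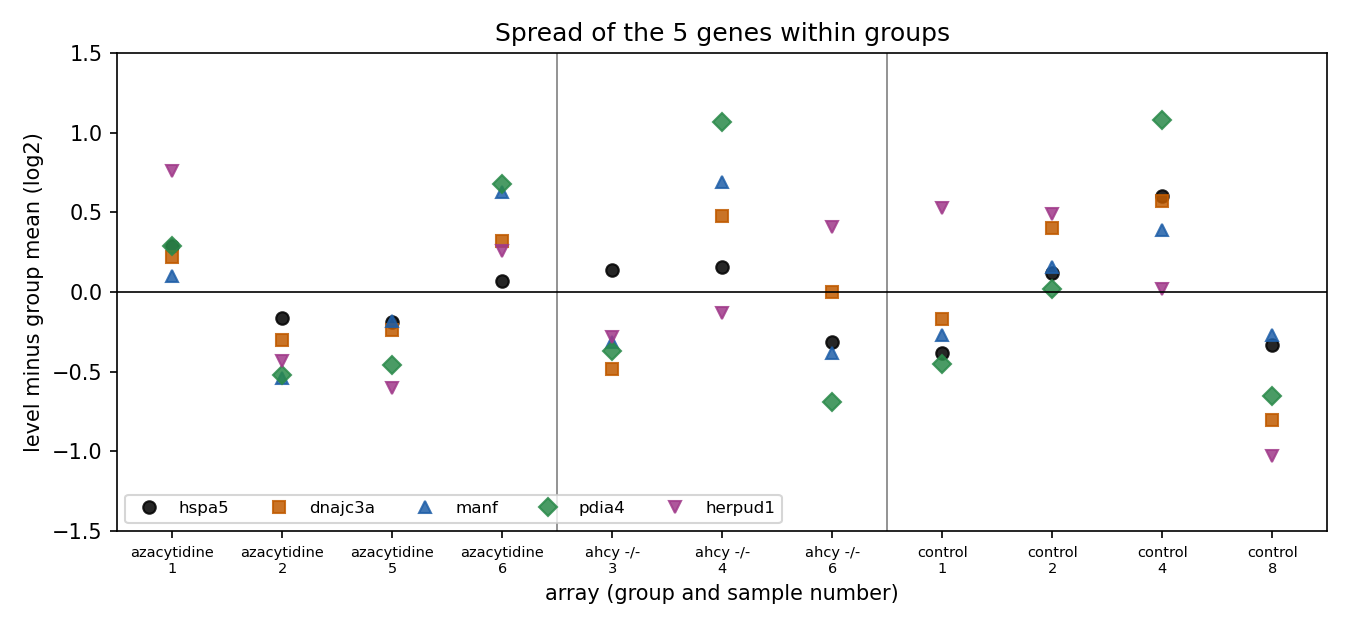
Level minus group mean (log2) for each of the 5 genes on each array, in the order azacytidine, ahcy -/- and control, with sample numbers below. Azacytidine arrays 1 and 6 and control 4 have all 5 genes above 0, and azacytidine arrays 2 and 5 and control 8 have all 5 below 0; herpud1 lies on the other side of 0 from the other 4 genes in mutant 4 and control 1, and in mutant 6 it is above 0 while none of the others is.

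By Pearson correlation with the mean of the 5 genes over the 11 arrays, group differences included, the most alike of all other named genes were tram1 (0.973), dnajb11 (0.970), pals2a (0.965), derl2 (0.965), ssr2 (0.962), hsp90b1 (0.962), sec61a1b (0.961) and rrbp1a (0.961). tram1, ssr2 and sec61a1b encode parts of the channel through which new proteins enter the ER, dnajb11 and hsp90b1 encode ER chaperones, and derl2 encodes a derlin of ER-associated degradation. pals2a and rrbp1a are in none of the 7 pathway lists used below. For single genes, the closest were tram1 for hspa5 and for dnajc3a (0.980 each), dnajb11 for manf (0.981), hyou1 for pdia4 (0.974) and selenos for herpud1 (0.964). The second places went to sec61a1b for hspa5 (0.972), ssr2 for dnajc3a (0.976), tram1 for manf (0.976), id:ibd1087 for pdia4 (0.968) and cisd2 for herpud1 (0.945). The probe set of derl2 has a name that marks possible sharing of probes with other transcripts. All these correlations include the group differences that chose the 5 genes, so they are a description and no support.

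The other genes of the pathway were taken as 7 lists without the 5 genes themselves, 167 measured genes in all, and were tested in the limma fit of all probe sets, where a call means an adjusted p under 0.05. Across the 7792 genes, 0.436% were called higher and 0.167% lower with azacytidine, and 6.48% higher and 7.17% lower in mutants against control; against azacytidine 17.4% were called higher and 13.1% lower in mutants. At an unadjusted p under 0.05, 5.67% of all genes were higher and 9.29% lower with azacytidine, 15.1% and 13.6% in mutants against control, and 23.4% and 17.4% in mutants against azacytidine. The median difference over all genes was -0.03 for azacytidine minus control, 0.04 for mutant minus control and 0.07 for mutant minus azacytidine. Centring each array on its median moved the median over all probe sets to 0.05, -0.03 and -0.08, against -0.06, 0.08 and 0.14 as deposited. It changed the calls to 66 higher and 16 lower (34 and 13 as deposited) for azacytidine, to 398 and 675 (505 and 559) for mutants against control, and to 983 and 1458 (1355 and 1020) for mutants against azacytidine. The 5 genes kept their signs under that scaling and under cyclic loess, with azacytidine differences of 0.82 to 2.05 and mutant minus control differences of -2.93 to -0.73.

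With azacytidine, all 21 measured ER chaperones and co-chaperones had a positive difference, beside 3587 of all 7792 genes, and none passed the test. The lists were chosen with earlier results known and their genes share the same arrays, so matching signs are not independent. The median difference of the 21 chaperones was 0.42, and limma called 0 higher and 0 lower. At an unadjusted p under 0.05, 7 were higher and 0 lower, beside 5.67% and 9.29% of all genes. All 21 were also positive with centred arrays and with cyclic loess, beside 4493 and 4147 of all genes, and 1 was called higher under each. cnpy1, a saposin-like ER protein of the canopy family, read 9.37, 9.35, 10.1 and 10 in azacytidine arrays against 8.11, 8.11, 8.01 and 8.18 in controls, a difference of 1.6 ± 0.32 (adjusted p = 0.0527), with no overlap. cnpy3 had 0.84 ± 0.23 (adjusted p = 0.118). hyou1, the large ER chaperone that exchanges nucleotide on BiP, had 1.35 ± 0.38 (adjusted p = 0.124), with levels of 11.90, 11.27, 11.29 and 12.44 against 9.73, 10.67, 11.33 and 9.76. hsp90b1, the ER Hsp90 GRP94, had 1.04 ± 0.48 (adjusted p = 0.335), and dnajb11, a BiP co-chaperone, had 0.53 ± 0.26 (adjusted p = 0.36); both overlapped the controls.

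In ahcy mutants, 6 of these 21 chaperones fell against control and 1 rose, with a list median of -0.62; the share of 28.6% called lower stands beside 7.17% of all genes. hsp90b1 fell by 2.52 ± 0.52 on the log2 scale, to 5.84, 5.78 and 5.27 in mutants 3, 4 and 6, against 7.84, 8.44, 9.53 and 6.77 in controls 1, 2, 4 and 8 (adjusted p = 0.00947). serp1, which stabilises proteins at the translocation channel, fell by 1.02 ± 0.11 (adjusted p = 0.000248). dnajb11 fell by 1.18 ± 0.28 (adjusted p = 0.0175) and ppib, the ER prolyl isomerase cyclophilin B, by 0.69 ± 0.16 (adjusted p = 0.018), while cnpy4 rose by 0.96 ± 0.25 (adjusted p = 0.0259), all by limma with Benjamini-Hochberg adjustment. hyou1 had -1.33 ± 0.41, below all controls on the arrays but not called (adjusted p = 0.0544). In the other direction, fkbp9 had 1.21 ± 0.37 (adjusted p = 0.0537) and clgn 0.86 ± 0.29 (adjusted p = 0.0744). Both were chosen for mention after their values were seen, lay above all controls and were not called. At an unadjusted p under 0.05, 3 of the 21 were higher and 11 lower, beside 15.1% and 13.6% of all genes. The calls of hsp90b1, serp1 and ppib held in all 11 fits that left out 1 array; that of dnajb11 was lost without control 2 or without mutant 6, and that of cnpy4 without control 8, mutant 4 or mutant 6. The count of 6 was 3 without control 2 or without mutant 6, and 2 without controls 2 and 4. The shares of all genes called in these smaller fits are not given here, so nothing is read from the changed counts.

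Mutants set against azacytidine livers gave the widest gap for this list. 11 of the 21 chaperones were lower in mutants and 0 higher (2 higher at an unadjusted p under 0.05), with a median of -1.17; 52.4% called lower stands beside 13.1% of all genes. hsp90b1 differed by -3.55 ± 0.52 (adjusted p = 0.000655), hyou1 by -2.68 ± 0.41 (adjusted p = 0.000845), cnpy1 by -2.44 ± 0.35 (adjusted p = 0.000589) and dnajb11 by -1.71 ± 0.28 (adjusted p = 0.00119). These are differences between the inhibited groups and do not involve the control arrays, except through the shared estimate of spread.

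Disulfide isomerases and oxidases, the family of pdia4, were mixed. Of 15 measured genes, azacytidine had 0 called by limma (3 higher and 0 lower at an unadjusted p under 0.05), with a median of 0.07. pdia6, a close relative of pdia4 in function, read 6.28, 7.39, 6.51 and 6.21 with azacytidine against 5.46, 5.28, 5.35 and 5.46 in controls, a difference of 1.21 ± 0.25 that missed the threshold (adjusted p = 0.0527). In mutants 2 fell (13.3%) and 1 rose (6.67%) against control, beside 7.17% and 6.48% of all genes, with a median of -0.35. qsox1, a secreted-pathway sulfhydryl oxidase, fell by 1.64 ± 0.32 (adjusted p = 0.0066) and prdx4, an ER peroxiredoxin, by 1.27 ± 0.36 (adjusted p = 0.0398, lost in 7 of the 11 fits that leave out 1 array). agr2, known from mucus-secreting epithelia, rose by 2.07 ± 0.55 (adjusted p = 0.03, lost in 4 of 11 such fits), to 7.53, 8.92 and 8.37 in mutants against 4.78, 5.73, 7.18 and 7.14 in controls. Against azacytidine, 5 were lower (33.3%) and 2 higher (13.3%) in mutants, beside 13.1% and 17.4% of all genes. By limma pdia6 differed by -1.67 ± 0.27 (adjusted p = 0.00107) and pdia3, the isomerase of the calnexin cycle, by -0.75 ± 0.23 (adjusted p = 0.0285).

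ER-associated degradation, the process of herpud1, held the only azacytidine call among the 77 genes of the sensor, chaperone, isomerase and degradation lists. vcp, the ATPase that pulls proteins out of the ER membrane, rose by 1.4 ± 0.23 (adjusted p = 0.0189, limma) and read 8.43, 8.35, 8.48 and 8.62 with azacytidine against 7.19, 7.13, 6.79 and 7.19 in controls. Its call was lost without control 4 or without azacytidine 2, 5 or 6, with the difference between 1.30 and 1.44 over all 11 such fits. The list's median was 0.33, and 23 of 28 genes were positive, beside 3587 of all 7792 genes. At an unadjusted p under 0.05, 10 were higher and 0 lower, beside 5.67% and 9.29% of all genes. syvn1, which encodes HRD1 and was chosen for mention after its values were seen, had 1.11 ± 0.25 (adjusted p = 0.0697), and selenos, a selenoprotein that recruits VCP to the ER membrane, had 0.91 ± 0.20 (adjusted p = 0.0697).

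In mutants 4 of the 28 degradation genes fell against control (14.3%) and 1 rose (3.57%), beside 7.17% and 6.48% of all genes, with a median of -0.24. aup1 fell by 1.22 ± 0.24 (adjusted p = 0.00647), and this call held in all 11 fits without 1 array. derl1 fell by 0.74 ± 0.21 (adjusted p = 0.0384), dnajb12a by 1.08 ± 0.32 (adjusted p = 0.0437) and derl2 by 0.89 ± 0.27 (adjusted p = 0.0487), and bag6 rose by 0.63 ± 0.19 (adjusted p = 0.0494). These calls were near the threshold: leaving out 1 array ended that of derl1 and of dnajb12a in 8 of 11 fits each, that of bag6 in 10 and that of derl2 in 11. Against azacytidine, 12 were lower in mutants (42.9%, beside 13.1% of all genes) and 0 higher by limma (2 at an unadjusted p under 0.05). The lower ones were led by vcp at -2.21 ± 0.25 (adjusted p = 0.000135, limma) and derl2 at -1.88 ± 0.27 (adjusted p = 0.00056).

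The sensors and transcription factors of the response were examined next. Of 13 measured genes, azacytidine had 0 calls by limma (1 higher and 0 lower at an unadjusted p under 0.05). Mutants had 1 lower against control (7.69%, beside 7.17% of all genes). The medians were 0.11 and 0.17. The xbp1 probe set, which does not report splicing, read 10.84, 10.99, 11.15 and 11.70 with azacytidine and 11.61, 10.87 and 10.90 in mutants, against 10.86, 11.26, 10.74 and 10.96 in controls. All 3 groups overlapped, with differences of 0.22 ± 0.22 with azacytidine and 0.17 ± 0.24 in mutants (adjusted p = 0.727 and 0.715, limma). eif2ak3, which encodes PERK, had 0.88 ± 0.24 with azacytidine (adjusted p = 0.118), above all controls, and -0.02 ± 0.26 in mutants (adjusted p = 0.977); mutant minus azacytidine was -0.89 ± 0.26 (adjusted p = 0.0237). atf4a had -0.56 ± 0.28 with azacytidine and -0.24 ± 0.31 in mutants, and atf4b had -0.35 ± 0.29 and -0.05 ± 0.31, none of them called. atf5b, an ATF4-family factor, fell by 1.72 ± 0.33 in mutants (adjusted p = 0.00631), and its call held in all 11 fits without 1 array. In mutants against azacytidine 2 of the 13 were higher and 2 lower, or 15.4% each, beside 17.4% and 13.1% of all genes. mbtps1, the site-1 protease that cleaves ATF6, had 0.86 ± 0.22 (adjusted p = 0.0122, lost without mutant 6) and atf5a 2.04 ± 0.70 (adjusted p = 0.0448, lost in 6 of 11 fits without 1 array). The lower ones were eif2ak3 and atf5b, the second at -1.21 ± 0.33 (adjusted p = 0.0173, lost without mutant 3). The sensors atf6 and ern1 and the factor ddit3 are not analysed here.

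Among 26 targets of the PERK and ATF4 branch, azacytidine had 0 calls by limma (2 higher and 2 lower at an unadjusted p under 0.05). Mutants had 1 call against control, a rise, or 3.85% beside 6.48% of all genes. slc3a2b, the heavy chain of amino acid exchangers, rose in mutants by 1.79 ± 0.52 (adjusted p = 0.0443, lost in 8 of 11 fits without 1 array). Against azacytidine 4 were higher in mutants (15.4%) and 2 lower (7.69%), beside 17.4% and 13.1% of all genes. Among the higher ones was stc2a at 1.59 ± 0.33 (adjusted p = 0.00426, limma). The list medians were 0.07 with azacytidine, 0.15 in mutants and 0.05 between them, close to those of all genes.

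The entry gate of the ER was examined through 31 genes of translocation and N-glycan transfer, which bring new proteins into the ER and add sugar chains. All 31 had a positive azacytidine difference, beside 3587 of all 7792 genes, with a median of 0.35. By limma 0 were called, and 11 were higher and 0 lower at an unadjusted p under 0.05, beside 5.67% and 9.29% of all genes. Centred arrays gave 2 called higher and cyclic loess 1, beside 66 and 62 of all genes. In mutants 11 fell and 0 rose against control (0 higher at an unadjusted p under 0.05), with a median of -0.53. The share of 35.5% called lower stands beside 7.17% of all genes. The count of 11 was 16 with centred arrays and 10 with cyclic loess, beside 675 and 572 of all genes. tram1 fell by 2.09 ± 0.21 (adjusted p = 0.000148), to 7.42, 7.64 and 7.17 in mutants against 9.32, 9.76, 9.60 and 9.31 in controls, and azacytidine arrays read 10.44, 10.33, 10.24 and 10.57. sec61a1b, a pore subunit, fell by 2.15 ± 0.38 (adjusted p = 0.00396), ostc, a subunit of the oligosaccharyltransferase, by 1.38 ± 0.16 (adjusted p = 0.000349) and dad1, another, by 0.84 ± 0.13 (adjusted p = 0.00218). Its paralogue sec61a1a, chosen for mention after its values were seen, had a higher control mean than sec61a1b (11.5 against 8.79). The differences of sec61a1a were 0.11 ± 0.15 with azacytidine and -0.155 ± 0.17 in mutants. Both overlapped the controls and neither was called (adjusted p = 0.809 and 0.613, limma). The calls of tram1, sec61a1b, ostc and dad1 held in all 11 fits without 1 array, and 7 of the 31 were called lower without controls 2 and 4. The share of all genes called in that last fit is not given here. Against azacytidine, 18 were lower (58.1%, beside 13.1% of all genes) and 0 higher in mutants (0 higher at an unadjusted p under 0.05), with a median of -0.79.

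Chaperones outside the ER served for comparison. Of 35 cytosolic and mitochondrial heat shock genes, azacytidine had 0 calls by limma (0 higher and 4 lower at an unadjusted p under 0.05). Mutants had 1 higher and 1 lower against control (2.86% each, beside 6.48% and 7.17% of all genes). The medians were 0.06 and -0.07. hspa8, the constitutive cytosolic Hsp70, read 12.21, 11.96, 11.84 and 12.15 with azacytidine and 12.41, 12.56 and 12.41 in mutants, against 12.17, 12.08, 12.30 and 12.26 in controls. Its differences were -0.16 ± 0.10 with azacytidine and 0.26 ± 0.11 in mutants (adjusted p = 0.503 and 0.164, limma), where hspa5 had 0.80 and -1.70. hspa9, the mitochondrial Hsp70, had 0.25 ± 0.33 and -0.15 ± 0.35 with overlapping groups. hspb1, a small heat shock protein abundant in muscle and skin, rose in mutants by 1.79 ± 0.51 (adjusted p = 0.0398), and grpel1, a mitochondrial co-chaperone, fell by 1.21 ± 0.36 (adjusted p = 0.0486); leaving out 1 array ended these calls in 6 and 9 of 11 fits. In mutants against azacytidine 8 of the 35 were higher (22.9%) and 4 lower (11.4%), beside 17.4% and 13.1% of all genes, with a median of -0.05.

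**Figure D4:**
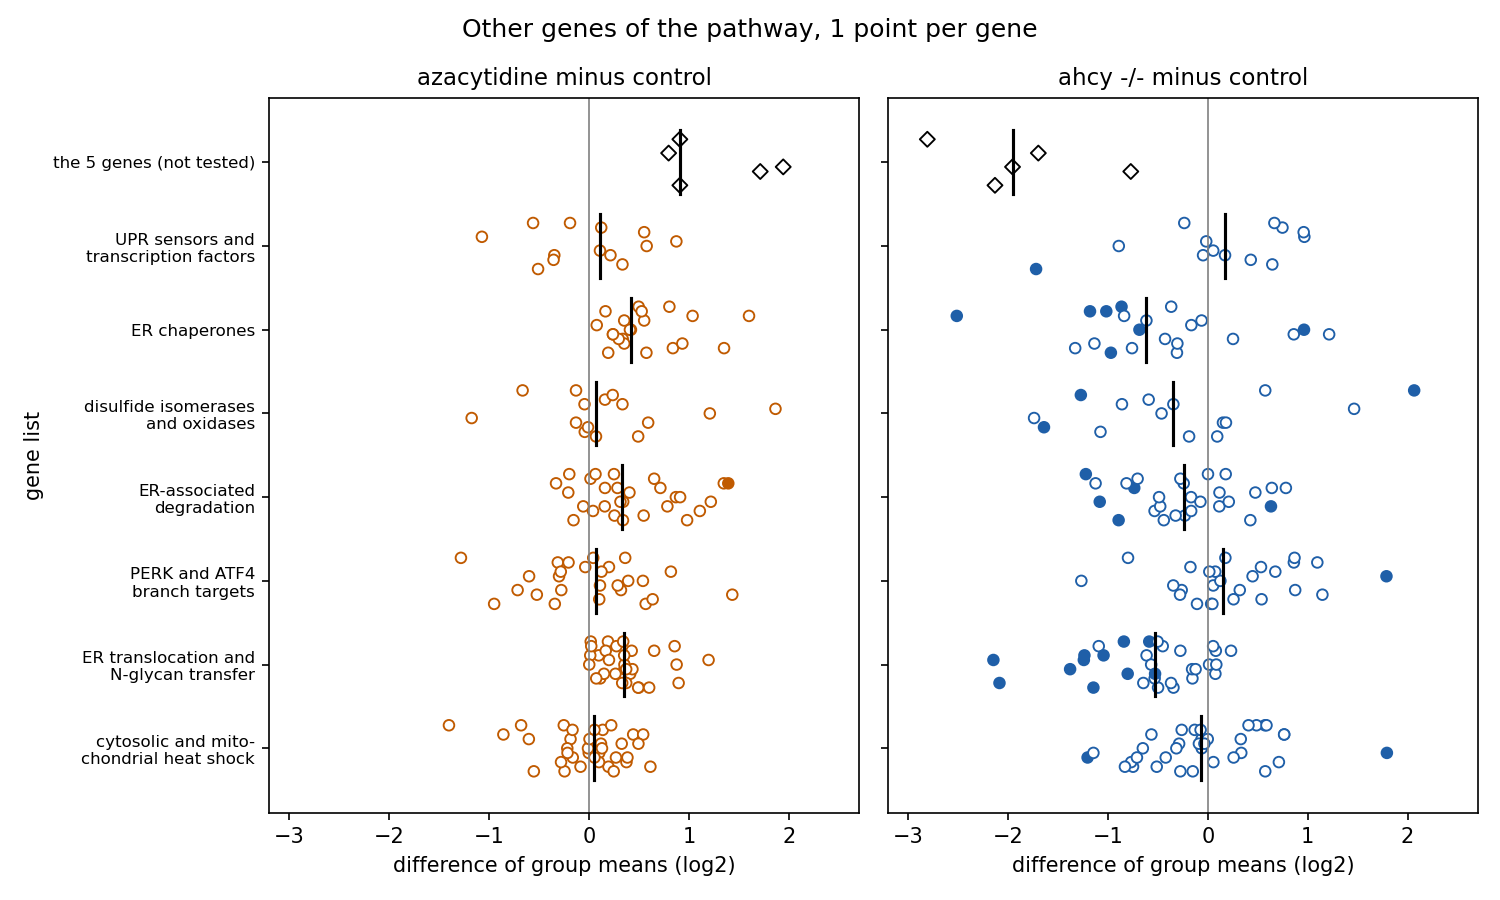
Differences of group means (log2) for azacytidine minus control (left) and ahcy -/- minus control (right), 1 point per gene; filled points were called (adjusted p under 0.05, limma), open points were not, diamonds are the 5 genes, which were not tested, and vertical bars are list medians. ER chaperones and translocation genes lie to the right of 0 with azacytidine (medians 0.42 and 0.35) and mostly to the left in mutants (medians -0.62 and -0.53), while sensors, PERK and ATF4 targets and other heat shock genes spread around 0.

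Over the sensor, chaperone, isomerase and degradation lists together, 1 of 77 genes (1.3%) rose with azacytidine and 0 fell by limma (21 higher and 0 lower at an unadjusted p under 0.05). The calls stand beside 0.436% and 0.167% of all genes, and the unadjusted counts beside 5.67% and 9.29% of all genes. In mutants against control 3 rose (3.9%) and 13 fell (16.9%), beside 6.48% and 7.17% of all genes. Compared with azacytidine livers, 4 were higher (5.19%) and 30 lower (39%) in mutants, beside 17.4% and 13.1%. The count of 13 was 7 without control 2, 8 without azacytidine 2, 8 without mutant 3, 6 without mutant 6 and 5 without controls 2 and 4. The count of 30 lay between 26 and 33 over the 11 fits without 1 array. The shares of all genes called in these smaller fits are not given here, so nothing is read from the changed counts.

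Several cell-type marker lists also differed between the groups. After subtracting group means, the mean of the 5 genes had correlations over the 11 arrays of -0.08 with hepatocyte, 0.05 with skeletal muscle and -0.23 with epidermis marker means. Over the 12 lists these ran from -0.29 (erythrocyte markers) to 0.32 (biliary markers). They are a description and carry no p. In mutants 10 of 18 hepatocyte markers fell against control and 0 rose by limma (13 lower and 0 higher at an unadjusted p under 0.05). Their mean level was 9.85 to 10.69 in mutants against 11.25 to 11.55 in controls, with a median difference of -0.70. fabp10a, the liver fatty acid binding protein, fell far more than that median. It was 11.66, 10.25 and 8.60 in mutants 3, 4 and 6 against 13.31 to 13.53 in controls. Other markers overlapped the controls, such as apoa1a at 11.93 to 12.56 in mutants against 11.11 to 12.72, and rbp4 at 12.02 to 13.22 against 12.73 to 13.33. hpxa, low on these arrays, read 4.81 to 5.35 against 3.92 to 4.89. Of 21 skeletal muscle markers 12 rose in mutants, with means of 10.14 to 10.72 against 8.39 to 9.33 in controls, and of 15 epidermis markers 11 rose, with means of 9.71 to 10.60 against 8.23 to 8.63. The mutant counts of all these lists stand beside 6.48% of all genes called higher and 7.17% called lower. At an unadjusted p under 0.05 the shares of all genes were 15.1% and 13.6%. Neural markers had 0 of 18 called by limma and 0 at an unadjusted p under 0.05, with means of 6.86 to 7.89 in mutants against 5.44 to 8.59 in controls. In azacytidine livers the hepatocyte mean was 11.68 to 11.95, above all controls, with 0 of 18 called by limma (7 higher and 0 lower at an unadjusted p under 0.05). Not all markers shared this rise. It was largest in hpxa, cp and c3a.1, and hpxa was low in controls (3.92 to 4.89) and read 8.10 in azacytidine 2. The fibrinogen gene fgb read 12.53 to 12.85 with azacytidine against 12.03 to 12.31 in controls, while fabp10a overlapped at 13.28 to 13.59 against 13.31 to 13.53. Means of muscle, epidermis and neural markers overlapped the controls or lay below them with azacytidine: 7.69 to 8.48 for muscle (2 of 21 called lower, 15 lower at an unadjusted p under 0.05), 7 to 8.27 for epidermis (0 of 15 called, 5 lower at an unadjusted p under 0.05) and 4.98 to 5.49 for neural markers (0 of 18 called, 16 lower at an unadjusted p under 0.05). The azacytidine counts of all marker lists stand beside 0.436% of all genes called higher and 0.167% called lower. At an unadjusted p under 0.05 the shares of all genes were 5.67% and 9.29%. Exocrine pancreas markers, from another secretory cell type, had means of 5.41 to 7 with azacytidine and 5.10 to 6.08 in mutants, against 5.54 to 9.78 in controls, with 0 of 17 called by limma with azacytidine (0 higher and 6 lower at an unadjusted p under 0.05) and 1 called lower in mutants. Leukocyte markers had means of 6.35 to 6.70 with azacytidine and 5.76 to 6.72 in mutants, against 5.27 to 6.15 in controls. The azacytidine means lay above all controls, a gap that came from 2 of the 12 markers, cd74a and cd74b. Of these 12 markers 2 rose with azacytidine and 0 fell by limma (4 higher and 0 lower at an unadjusted p under 0.05), and 2 rose and 1 fell in mutants. The 2 that rose with azacytidine were cd74a and cd74b, which encode the invariant chain of antigen presentation. cd74a read 8.20, 9.37, 10.18 and 10.87 with azacytidine against 4.51, 4.60, 4.22 and 4.55 in controls. Other leukocyte markers were mixed. mpx read 8.63 to 10.38 with azacytidine against 9.65 to 10.69 in controls, and coro1a 5.02 to 5.59 against 5.21 to 5.98. lcp1 lay above all controls, at 5.44 to 6.19 against 4.79 to 5.27. The part of leukocytes in the differences of the 5 genes was not tested. In bulk livers, fewer cells of a type and less RNA per cell cannot be told apart.

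With the mean of the hepatocyte markers as a covariate, mutant minus control was -1.63 ± 0.52 for hspa5, -3.28 ± 0.76 for dnajc3a, -1.86 ± 0.72 for manf, -1.49 ± 1.09 for pdia4 and -1.83 ± 0.86 for herpud1. With the mean of neural, muscle and epidermis markers instead, it was -1.80 ± 0.37, -2.83 ± 0.55, -2.17 ± 0.52, -2.24 ± 0.78 and -0.24 ± 0.63 for the same genes. All 5 were negative under both, with herpud1 moving most and standard errors wider than without a covariate. The fit takes a covariate's effect from the spread within groups, and the groups did not overlap in their hepatocyte means. These fits therefore cannot separate tissue content from group, and the part of tissue content was not tested. Azacytidine minus control stayed positive for all 5 under both, from 0.77 to 2.21. With the exocrine pancreas markers as the covariate, the 5 azacytidine differences were 0.77 to 1.97 and the mutant differences -2.70 to -0.65. Among the 77 pathway genes, none of the 13 mutant calls against control was made with the hepatocyte covariate and 1 gene was called lower with the other. The share of all genes called in these fits is not given here, and their standard errors were wider, so nothing is read from the lost calls.

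**Figure D5:**
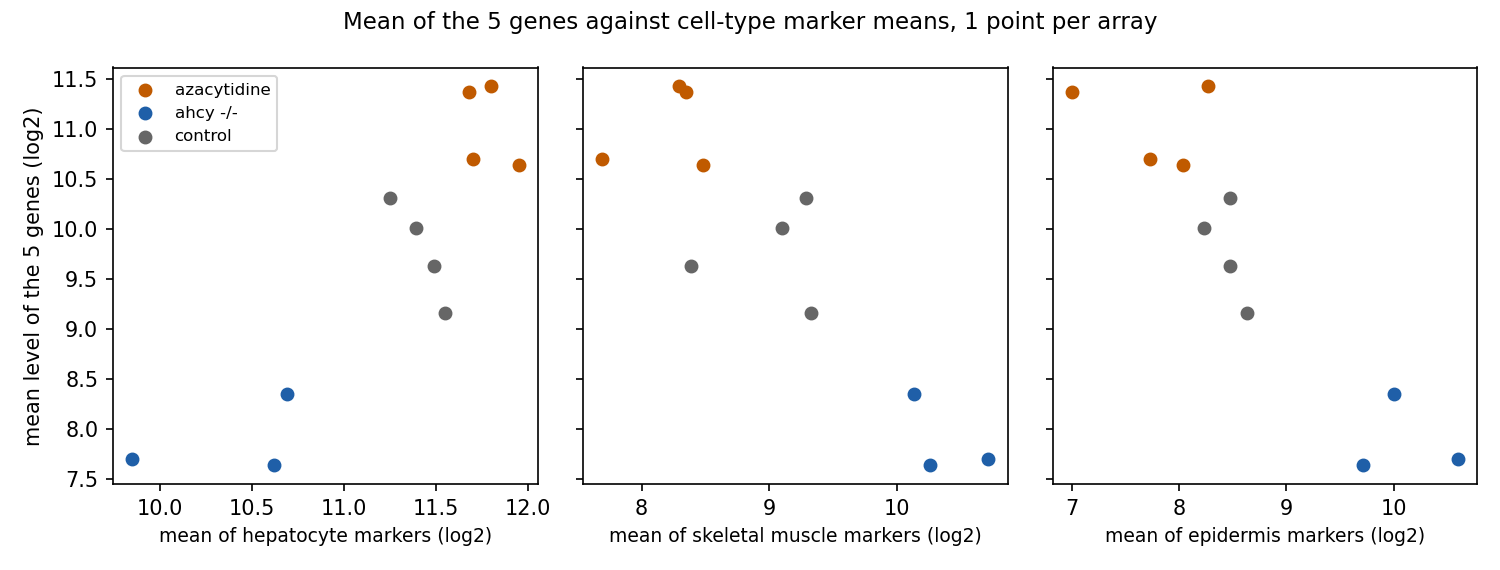
Mean level of the 5 genes (log2) against the mean level of hepatocyte, skeletal muscle and epidermis markers (log2), 1 point per array. Mutants sit at low hepatocyte means (9.85 to 10.69) and high muscle and epidermis means, and azacytidine arrays at the highest hepatocyte means (11.68 to 11.95). The groups form separate clusters of 3 or 4 arrays, so no relation across arrays was tested.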

How the data were processed

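RNA from 11 liver samples was amplified in 2 rounds and hybridised to Affymetrix zebrafish arrays, per the labels' protocols. The labels name more than 1 labelling molecule, and the arrays were read here as 1-colour. The values the authors deposited are log2 levels of probe sets; the submitters' processing notes name GCRMA and Partek for them. Versions, any filter and the build are not given in the sources used here. GCRMA compresses very high levels and leaves low levels uncertain. Of 12830 probe sets, 46 array controls were left out and 12784 tested, with no further filter or scaling. Symbols came from the platform annotation, updated by gene ID: 8994 probe sets had 1 symbol, 110 several and 3680 none; only the first kind was named. A gene's probe set with the highest mean over the arrays stood for it. Groups came from sample titles.

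limma 3.58.1 in R 4.3.3 fitted 3 group means to all 11 arrays, with a mean-dependent variance trend; 2-sided p-values were adjusted by Benjamini-Hochberg over all probe sets per comparison. The steps were tested on simulated data. The 5 genes and the 7 pathway and 12 cell-type lists were chosen with earlier results of these data known. Genes were named by rule: per list and comparison up to 4 called genes per direction by smallest p, or the 2 smallest p where none was called; main chaperones, sensors and Hsp70s where measured; the 8 genes most alike to the mean of the 5 and 2 per gene. The text gives some of them. Same-numbered samples were checked for pairing and did not deviate together (correlations 0.02, -0.21, 0.03 and -0.00), so no block was used. Alternatives were other variance priors, filters on dim probe sets, centring, cyclic loess, 2-group fits, array weights, replicate blocks, averaged probe sets, marker covariates, a threshold of 0.1 and leaving out arrays.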

Additional observations from a re-analysis of the deposited data

Results flagged for a closer look

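A gap test was run on 128 groups of 4 arrays, the azacytidine and the control group of each named gene; it asks whether the highest or lowest array lies far from the other 3, and chance passes about 1 in 20 groups. It passed in 9 of 128, near that share, and in none of the 5 genes. Among ER genes, cnpy3 was low in azacytidine 2 (6.42, the others 6.87 to 6.90), derl1 high in azacytidine 6 (11.60, the others 10.90 to 11.01) and sec61a1b low in azacytidine 5 (9.65, the others 10.07 to 10.13). tmx1 was high in control 8 (7.51, the others 7.15 to 7.16) and vcp low in control 4 (6.79, the others 7.13 to 7.19). Control 4 was 1 of 4 arrays without each of which the azacytidine call of vcp was lost. aldh18a1, listed as a target of the PERK and ATF4 branch and not as an ER gene, was high in control 8 (8.5, the others 8.18 to 8.22). Outside the ER, hspb1 was high in azacytidine 2 (8.58, the others 6.63 to 6.96), dnaja2b low in azacytidine 5 (7.42, the others 8.13 to 8.16) and dnaja3a high in control 2 (5.28, the others 4.55 to 4.65).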

How the results depend on the processing

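None of the 15 differences of the 5 genes changed sign in any alternative run, but some moved: with a fixed replicate block hspa5 and pdia4 were at -2.97 and -4.77 for mutant minus azacytidine; with probe sets averaged, the dimmer at the floor, manf was at -1.34 against control and -2.25 against azacytidine; with the neural, muscle and epidermis covariate herpud1 was at -1.46 against azacytidine; with the hepatocyte covariate herpud1 was at -1.83 against control, and dnajc3a and herpud1 were at -4.35 and -3.92 against azacytidine; without controls 2 and 4 (added after seeing the data) hspa5 was at 1.16 and -1.34. Among the 77 pathway genes, the 1 azacytidine call became 2 without variance trend or with 2 groups fitted, 3 with the 25th percentile filter, the random replicate block or averaged probe sets, 5 with array weights or the exocrine covariate, 6 with centring or cyclic loess, 7 at 0.1, and 0 with the fixed replicate block, the hepatocyte or the neural, muscle and epidermis covariate, or without controls 2 and 4. The 3 rises in mutants became 1 with 2 groups or the exocrine covariate, 8 with array weights, 7 at 0.1, and 0 with the fixed replicate block, the other covariates or without controls 2 and 4. The 13 falls became 6 with 2 groups, 5 with the exocrine covariate or without controls 2 and 4, 1 with the neural, muscle and epidermis covariate, and 0 with the hepatocyte covariate or the fixed replicate block. Against azacytidine, 4 higher became 2 with centring or loess, 7 at 0.1 and 0 with the fixed replicate block or those covariates; 30 lower became 4 with the fixed replicate block and 0 with those covariates. Leaving out 1 array gave 0 to 2, 0 to 5, 6 to 13 and 2 to 4 for the counts of 1, 3, 13 and 4. The shares of all genes called in most of these runs are not given here, so nothing is read from the changed counts. Among called differences of named genes, signs turned only for mutant minus azacytidine of atf5a (-0.14, fixed replicate block), with the neural, muscle and epidermis covariate of atf5a (-0.71), agr2 (-0.69), pdia3 (0.11), gadd45ab (-0.13), shmt2 (0.23), hspa4l (-1.30), hspb1 (-0.16) and dnaja2b (-0.43), and with the hepatocyte covariate of pdia3 (0.24), slc3a2b (-0.54), shmt2 (0.32), hspb8 (0.0086) and hspe1 (0.42), and of slc3a2b against control (-0.16). The causes were not tested; the fixed replicate block and the covariates leave fewer residual degrees of freedom, and the covariates differ between groups. Same-numbered samples did not deviate together, a check on few pairs that cannot tell whether they shared a clutch or batch. The 5 genes were chosen by these contrasts, so their kept signs lend no support.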
